A study of Mus musculus with 6 samples.

Results

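The 10 genes followed here act in the piRNA pathway and in germ granules, and were compared in oocytes with and without LSM14B: Ddx4, Piwil2, Mael, Tdrkh, Tdrd1, Tdrd7, Tdrd9, Pld6, Mov10l1 and Gtsf1. They were chosen by symbol, and all 10 were found once each among the 24255 genes of the expression table. The RNA-Seq libraries came from fully-grown oocytes (FGOs) at the germinal vesicle (GV) stage, that is, immature oocytes at the end of growth, of wild type (WT) mice and of mice without Lsm14b (Lsm14b-KO), 3 libraries per genotype and 20 oocytes per library. Lsm14b-KO females were homozygous for the Lsm14b tm1a(KOMP)Mbp allele, a reporter-tagged insertion present in every cell of the animal, and the line was kept on a C57BL/6J background. Both groups had received 5 IU of PMSG, a gonadotropin that stimulates follicle growth, 46 h before collection. The age of these mice and the number of mice behind each pool were not given in the sources used here, so the spread between libraries may be partly technical.

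PIWI-interacting RNAs (piRNAs) are small RNAs of germ cells that guide PIWI proteins to transposon transcripts. They are cut from long precursors and trimmed at granules that lie beside the nucleus and the mitochondria, known as nuage or germ granules. PIWI proteins and Tudor domain proteins are held together there by methylated arginines. In mice the pathway is best known from the male germline, where its loss releases transposons and stops spermatogenesis, whereas oocytes also use endogenous siRNAs against transposons.

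The study examined the hexamer CCUCUC in connection with LSM14B, so the transcripts of the 10 genes were searched on the sense strand for its DNA letters, CCTCTC. The transcripts were GENCODE vM21 sequences (GRCm38, the assembly also called mm10), and 54.1% of the 6321 tested genes with a transcript held at least 1 match. For each gene 1 transcript was searched, the longest with a RefSeq entry, or the longest where none had one. Whether oocytes use that transcript was not examined, so the matches below describe it and not every form of the gene. Ddx4, Mael, Tdrd7 and Gtsf1 held none, Tdrd1 held 4, Tdrkh 3, Tdrd9 and Mov10l1 2 each, and Piwil2 and Pld6 1 each. Matches in the 3′UTR were found in Tdrd1 (3), Tdrkh (2) and Pld6 (1), against 30.4% of the 5820 tested genes with an annotated 3′UTR that held any. A match is a run of letters and not a measured binding site. The matches of Tdrkh and Tdrd1 are shown, since these were the only tested members that held any, with the hexamer in capitals:
Tdrkh, coding sequence, chr3:94425974-94426003, plus strand: cccctggaagttCCTCTCcgcaaaggaggt
Tdrkh, 3′UTR, chr3:94431015-94431044, plus strand: tataattcccagCCTCTCcatatcaggttc
Tdrkh, 3′UTR, chr3:94431267-94431296, plus strand: aagagtgtactaCCTCTCacccacagttgc
Tdrd1, coding sequence, chr19:56831151-56831180, plus strand: ccgccccaggacCCTCTCagaagtcctgta
Tdrd1, 3′UTR, chr19:56868818-56868847, plus strand: agtgacttttagCCTCTCcgctgtgcttgc
Tdrd1, 3′UTR, chr19:56868862-56868891, plus strand: cgggtttgctgcCCTCTCcccgattctttc
Tdrd1, 3′UTR, chr19:56869183-56869212, plus strand: tagaagctcgagCCTCTCatgtacgaggca

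Levels were in FPKM, a unit that corrects fragments for transcript length and for library size, and are listed below in the order of replicates 1, 2 and 3. The targeted gene, Lsm14b, stood at 2.77, 3.98 and 1.72 FPKM in WT and at 0, 0 and 0.10 FPKM in Lsm14b-KO (log2 fold change -1.85, SE 0.25, limma adjusted p 0.0038), so its level fits the labels. The relative depth, read from the steps between the lowest values, was 1 to 1.14 in WT and 1.33 to 2.17 in Lsm14b-KO libraries, so rare transcripts were seen more easily in the latter. The correlation of log2(FPKM + 1) across tested genes was 0.952 to 0.954 between Lsm14b-KO replicate 1 and the WT libraries, and 0.960 and 0.917 between it and Lsm14b-KO replicates 3 and 2. Lsm14b-KO replicate 1 was thus the Lsm14b-KO library nearest to WT, and replicate 2 the farthest (0.867 to 0.890 with WT). The FPKM of a library summed to 564671 in Lsm14b-KO replicate 2, against 1141324 to 1244182 in WT. Results that change without a library are given with it left out. All 10 oocyte markers were above 0, with summed levels of 43280 to 54460 FPKM in WT and 27980 to 70280 FPKM in Lsm14b-KO libraries. Dppa3 made up most of each sum. The markers did not move together in Lsm14b-KO replicate 2, where the sum was lowest. Zp2 (272 against 49.1 to 103 FPKM in WT), Bmp15 (1482 against 183 to 380 FPKM), Nlrp5 (423 against 29.4 to 131 FPKM) and Nobox (98.9 against up to 16.5 FPKM) were above all WT libraries. So were Zp1, Zp3 and Gdf9. Dppa3 (19430 against 34580 to 47680 FPKM), Oosp1 (1846 against 4926 to 5800 FPKM) and Figla (57.81 against 91.67 to 96.45 FPKM) were below all WT libraries in that replicate. Of 12 cumulus and granulosa cell markers, 7 were above 0 (summed, 9.56 to 13.2 FPKM in WT and 5.88 to 9.62 FPKM in Lsm14b-KO). Cyp19a1 gave most of each sum, at 8.26 to 11.5 FPKM in WT and 3.00 to 5.76 FPKM in Lsm14b-KO. Fshr was at 0.35 to 1.68 FPKM in WT and 1.82 to 2.08 FPKM in Lsm14b-KO. Amh, Inhba, Foxl2, Ptx3 and Tnfaip6 were listed at 0 throughout. All 5 red blood cell markers were listed at 0. Of 6 genes listed as male germ cell markers, Prm1, Tnp1 and Stra8 were also at 0. The other 3 summed to 41.3 to 71.0 FPKM in WT and 48.3 to 452.8 FPKM in Lsm14b-KO libraries. Most of each sum came from Sycp3, a meiotic gene that is not particular to male germ cells. Sycp3 stood at 34.8 to 63.4 FPKM in WT and 46.9 to 447.8 FPKM in Lsm14b-KO libraries, highest in replicate 1. Prm2 was at 5.61 to 11.3 FPKM in WT and 0.99 to 4.34 FPKM in Lsm14b-KO libraries. The part of these markers in the results below was not tested.

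The members spanned a wide range of levels, and their order in WT FGOs was Gtsf1, Mael, Tdrd1, Tdrkh, Ddx4, Tdrd9, Tdrd7 and Piwil2, with Pld6 and Mov10l1 listed at 0. In the WT libraries no range overlapped the next from Gtsf1 to Tdrd9, whereas those of Tdrd9, Tdrd7 and Piwil2 overlapped their neighbours. The ranges of Ddx4 and Tdrd9 all but met, at a lowest value of 0.388 FPKM and a highest of 0.386 FPKM, and barely separate these genes. Gtsf1 had 71.7 ± 14.9 FPKM (SD, n = 3), above 87.5% of the tested genes, and Mael had 12.3 ± 3.11 FPKM (SD, n = 3), above 72.9%. Ddx4, although it encodes the classic marker protein of germ cells, had only 0.66 ± 0.26 FPKM (SD, n = 3) in WT FGOs. In Lsm14b-KO FGOs Ddx4 and Tdrkh changed places, with 3.22 ± 0.33 and 1.29 ± 0.24 FPKM (SD, n = 3 each), and the ranges of Gtsf1 and Mael overlapped, Mael being the higher in replicates 2 and 3.

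**Figure D1:**
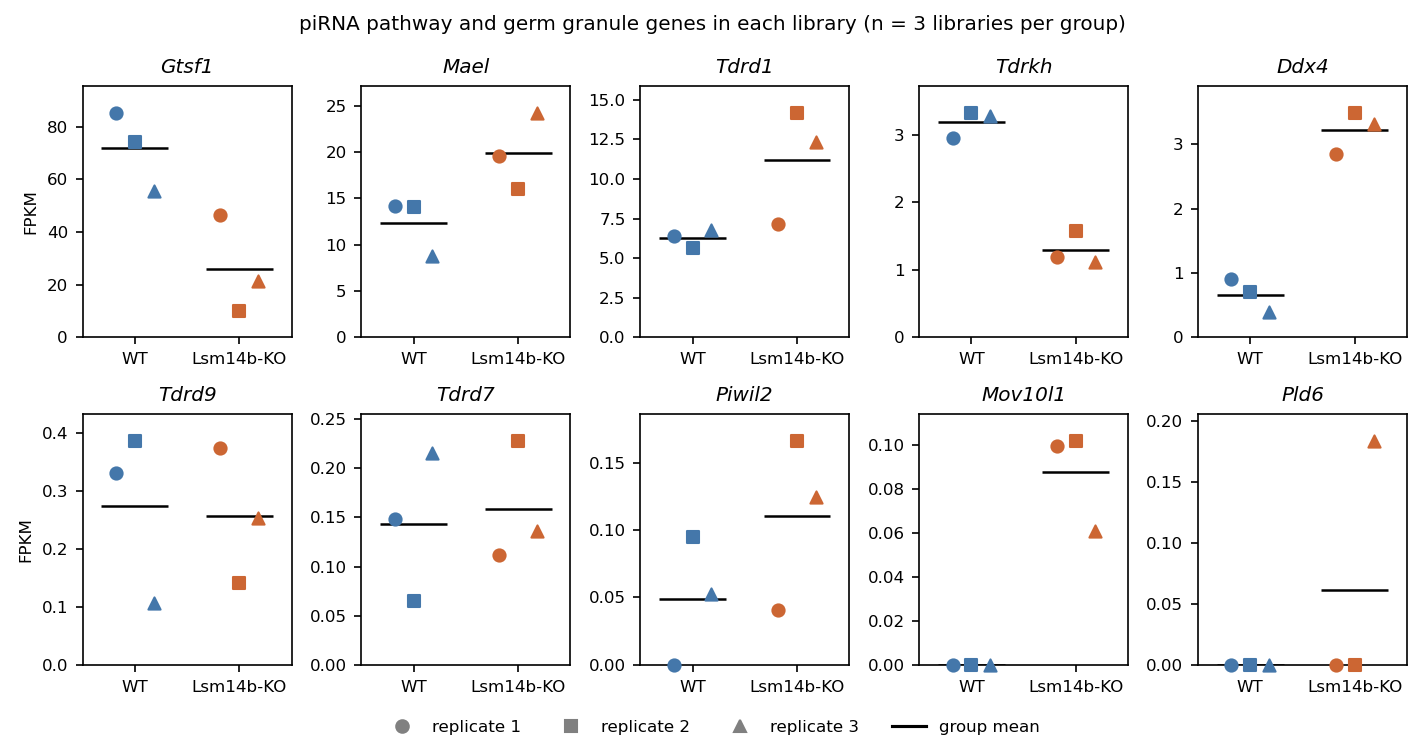
FPKM of the 10 genes (vertical axes, linear from 0, a scale per gene) in the 3 WT and 3 Lsm14b-KO libraries, with a marker shape per replicate and a black line at each group mean. The groups do not overlap in any of the 5 genes of the top row, while Tdrd9, Tdrd7 and Piwil2 overlap and stay under 0.4 FPKM.

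The genotypes were compared with limma on log2(FPKM + 1) for the 6398 genes that reached 1 FPKM in any library. Of the members, 5 reached that level (Ddx4, Mael, Tdrkh, Tdrd1 and Gtsf1) and 5 did not. With an adjusted p under 0.05 over all tested genes, 1 member rose in Lsm14b-KO FGOs (Ddx4) and 1 fell (Tdrkh), while Mael, Tdrd1 and Gtsf1 did not pass. In pools of oocytes, fewer cells with a transcript and less of it per cell cannot be told apart. Among all tested genes 21.6% passed, 6.38% as higher and 15.2% as lower. The Lsm14b-KO and WT values did not overlap in any of the 5 tested members, with 3 higher and 2 lower than WT, against 45% of all tested genes (1221 of the 6398 higher and 1661, or 26%, lower). Ddx4 entered the test through its Lsm14b-KO values alone, so these counts describe the members and do not set them apart. With the filter taken off, the median log2 fold change was 0.081 over all 10 members and 0.019 over all genes. That median takes in the 5 members under 1 FPKM, whose log2 fold changes (-0.018 to 0.12) the log2(FPKM + 1) scale holds near 0. It therefore does not show that the members as a set were unmoved. Without Lsm14b-KO replicate 1, 4 members passed (Ddx4, Tdrkh, Tdrd1 and Gtsf1), against 47% of all tested genes in that fit. Without WT replicate 1, 2 or 3, or without Lsm14b-KO replicate 3, Ddx4 alone passed, and 6.5%, 6.78%, 8.55% and 5.06% of all tested genes did.

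Ddx4, the mouse vasa homolog, encodes a DEAD-box RNA helicase that defines germ granules, and lies on chromosome 13 (112598333 to 112652475, minus strand). The WT libraries held 0.90, 0.70 and 0.39 FPKM of Ddx4 and those of Lsm14b-KO held 2.86, 3.49 and 3.31. Every Lsm14b-KO library was thus above every WT library. Replicate 1, the Lsm14b-KO library closest to WT across genes, was close to the other Lsm14b-KO libraries in FPKM. After scaling to an equal FPKM sum (TPM), it was again the nearest to WT. Ddx4 was then at 2.77 TPM in Lsm14b-KO replicate 1, 6.18 and 4.89 TPM in replicates 2 and 3, and 0.34 to 0.72 TPM in WT. The ratio of the mean FPKM was 4.86. On the log2(FPKM + 1) scale, which understates changes of low genes, the log2 fold change was 1.35 (SE 0.20, 95% confidence interval 0.89 to 1.82) with an adjusted p of 0.005 in limma. All 15 alternative settings kept the call, at log2 fold changes between 1.23 and 2.34 and limma adjusted p between 0.00138 and 0.0373. All of them but the setting without a filter admitted Ddx4 through its Lsm14b-KO values alone, and so are not free of that selection. With the filter taken off the log2 fold change was 1.35 (limma adjusted p 0.0184).

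The fragments behind the Ddx4 values could be traced in steps. Multiplied by the relative depth, the values corresponded to 9, 8 and 4 steps in WT and 38, 68 and 72 steps in Lsm14b-KO libraries, each within 0.1 of a whole number. A step is what 1 fragment is worth, or a fixed whole number of fragments. Per FPKM and kb of transcript, WT replicate 1 had 3.33 steps for Ddx4, and 3.64, 3.77, 3.77 and 3.73 for Tdrd7, Tdrd9, Piwil2 and Mov10l1, so a step was worth about as much in each of these genes. Pld6 stood at 2.64 from a single value above 0, and for Tdrkh no whole steps were found. The WT level of Ddx4 therefore rested on few steps, and that in Lsm14b-KO FGOs on more. The steps are the FPKM values multiplied by the relative depth, so they restate the FPKM and are not a separate measurement. The part of depth in the difference was not tested.

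Tdrkh encodes a Tudor and KH domain protein at the mitochondrial surface that takes part in the trimming of piRNA ends, and lies on chromosome 3 (94413273 to 94434668, plus strand). Its transcript stood at 2.95, 3.32 and 3.27 FPKM in WT but at 1.19, 1.57 and 1.11 in Lsm14b-KO libraries. The WT libraries were alike, and the highest Lsm14b-KO value was well below the lowest WT value. Tdrkh fell by 0.87 on the log2(FPKM + 1) scale (SE 0.19, 95% confidence interval -1.30 to -0.44), with an adjusted p of 0.0173 in limma. Its adjusted p lay between 0.00993 and 0.291 over 15 alternatives. It was above the threshold without WT replicate 1, 2 or 3 (0.0620, 0.0748 and 0.0616) and without Lsm14b-KO replicate 3 (0.0865), with log2 fold changes of -0.91, -0.85, -0.86 and -0.82. After scaling that gave all libraries an equal FPKM sum (TPM), the difference was -0.40 (limma adjusted p 0.291), and Lsm14b-KO replicate 2, at 2.78 TPM, lay within the WT range of 2.37 to 2.86 TPM. In GENCODE 3 genes overlap Tdrkh, of which only Oaz3, on the other strand, was found in the table, at 0 to 0.97 FPKM, and the labels do not say whether strand was kept.

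Gtsf1 encodes a small zinc finger protein that assists the slicing of targets by PIWI proteins, and lies on chromosome 15 (103402405 to 103430470, minus strand). It was the most abundant member in each WT library. On the log2(FPKM + 1) scale it had the largest fitted difference of the tested members, whereas by the ratio of mean FPKM (0.361) its difference was smaller than that of Ddx4 (4.86). Its WT levels of 85.2, 74.3 and 55.7 FPKM compare with 46.4, 9.96 and 21.3 FPKM in Lsm14b-KO FGOs. The groups did not overlap, but the Lsm14b-KO libraries were far apart from each other, with replicate 1 the nearest to WT. The log2 fold change was -1.66 (SE 0.51, 95% confidence interval -2.84 to -0.48), and its limma adjusted p of 0.0525 missed the threshold (unadjusted p 0.0117). Leaving out Lsm14b-KO replicate 1 gave -2.20 (limma adjusted p 0.00106, the lowest of 15 alternatives, the highest being 0.161), and leaving out replicate 2 gave -1.14 (limma adjusted p 0.0851). The value moved most under a correction for transcript length and GC content, to -0.96 (adjusted p 0.0638 in limma).

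Mael and Tdrd1 lay higher in all 3 Lsm14b-KO libraries than in any WT library, without passing the test. Mael encodes Maelstrom, a granule protein required for transposon silencing, and lies on chromosome 1 (166201201 to 166238747, minus strand). Mael levels were 14.1, 14.0 and 8.72 FPKM in WT FGOs, compared with 19.5, 16.0 and 24.2 FPKM after loss of Lsm14b. The gap between the groups was small next to the spread within each, and the log2 fold change was 0.66 (SE 0.29, 95% confidence interval -0.01 to 1.34, adjusted p 0.131 in limma). The call depended on the scaling. The log2 fold change was 1.32 under TPM scaling (adjusted p 0.0300), 1.00 under quantile normalization (adjusted p 0.0460) and 1.00 under the length and GC correction (adjusted p 0.0329 in limma). The highest adjusted p of the 15 alternatives was 0.351.

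Tdrd1 encodes a scaffold with several Tudor domains that binds PIWI proteins, and lies on chromosome 19 (56826209 to 56870012, plus strand). Tdrd1 was measured at 6.41, 5.61 and 6.76 FPKM in WT and at 7.15, 14.2 and 12.4 FPKM in Lsm14b-KO. Lsm14b-KO replicate 1 was barely above the WT libraries, while the other two were clearly above them. The fitted log2 fold change came to 0.71 (SE 0.29, 95% confidence interval 0.05 to 1.37) and missed the threshold (limma adjusted p 0.108). It passed only when Lsm14b-KO replicate 1 was left out, at 0.98 (limma adjusted p 0.00504), and the 15 alternatives reached up to 0.274.

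**Figure D2:**
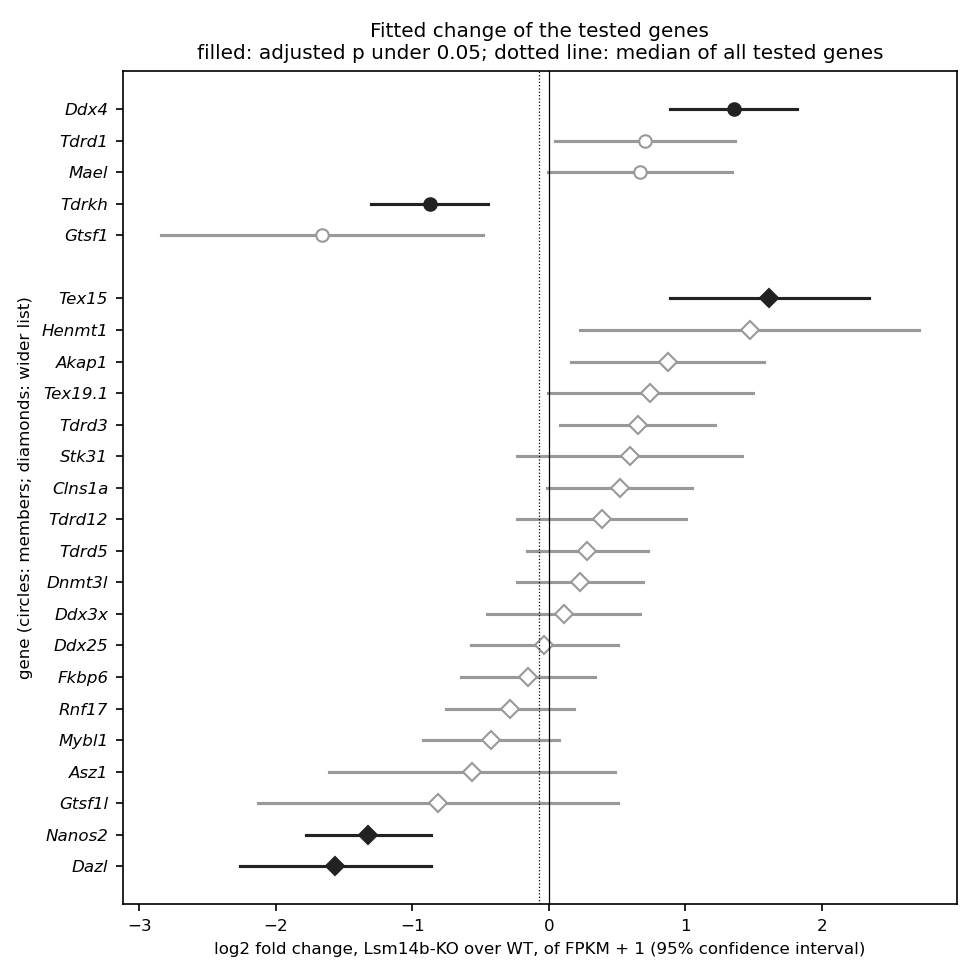
Fitted log2 fold change (horizontal axis, Lsm14b-KO over WT, of FPKM + 1) with its 95% confidence interval for the 5 tested members (circles) and the 19 tested genes of a wider list (diamonds). Filled symbols have an adjusted p under 0.05 in limma, and the dotted line is the median of all tested genes, -0.08. Ddx4 and Tex15 are the filled symbols to the right, and Tdrkh, Nanos2 and Dazl those to the left.

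The other 5 members stayed under 1 FPKM in every library and were not tested. With the filter taken off none of them passed, at limma adjusted p of 0.0916 (Mov10l1), 0.473 (Piwil2), 0.501 (Pld6), 0.880 (Tdrd7) and 0.939 (Tdrd9). Tdrd9 (chromosome 12, 111971559 to 112068854, plus strand) encodes a Tudor domain helicase of the nuclear branch of the pathway. Its locus, which the table also gives for Rd3l, read 0.33, 0.39 and 0.11 FPKM for WT and 0.37, 0.14 and 0.25 for Lsm14b-KO, or 6, 8 and 2 steps against 9, 5 and 10. Tdrd7 (chromosome 4, 45965334 to 46034761, plus strand) encodes a Tudor protein of germ granules. It was found at 0.15, 0.06 and 0.22 FPKM against 0.11, 0.23 and 0.14 FPKM, or 2, 1 and 3 steps against 2, 6 and 4. In both genes the groups overlapped, and at a handful of steps per library a difference was not detectable at this depth.

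Piwil2 is the only PIWI gene among the members (chromosome 14, 70372477 to 70429383, minus strand) and encodes the piRNA-binding protein MILI. Its WT levels were listed at 0, 0.095 and 0.052 FPKM, and those of Lsm14b-KO at 0.041, 0.17 and 0.12. In steps these were 0, 2 and 1 against 1, 6 and 5, so 15 steps in all carried the gene. Mov10l1 (chromosome 15, 88982909 to 89055152, plus strand) encodes the helicase that binds piRNA precursors. It was listed at 0 in all WT libraries and at 0.10, 0.10 and 0.06 FPKM once Lsm14b was lost, or 2, 3 and 2 steps. The groups did not overlap, but a count of 0 allows up to 3 steps, or 0.174 to 0.198 FPKM in the WT libraries, which is above each of these values. Pld6 (chromosome 11, 59783897 to 59787645, minus strand) encodes a nuclease of the outer mitochondrial membrane that cuts piRNA precursors. It was at 0 in 5 libraries and at 0.18 FPKM in Lsm14b-KO replicate 3, and with a single value above 0 the size of its step is not known. For neither Mov10l1 nor Pld6 did a difference pass the threshold at this depth, and these limits cover counting error only. No other GENCODE gene shared 200 nt at 95% identity or more with any of the 10.

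The balance of directions among all genes depended on the scaling, so each tested member was also read against the median gene. Of the 1383 genes called, 408 (29.5%) were higher, against 63.2% under TPM scaling, 42.4% after quantile normalization and 41.2% after the length and GC correction, with shifts of the median log2 fold change by 0.48, 0.14 and 0.14. The share was 11.8% without Lsm14b-KO replicate 3, 16.7%, 15.5% and 18.2% without WT replicate 1, 2 or 3, and 39.0% without Lsm14b-KO replicate 1. Against the median gene of the same scaling Ddx4 was at 1.43 as deposited and at 1.41, 1.32 and 1.30 under these 3 scalings. Tdrkh was at -0.80 and then at -0.80, -0.91 and -0.94, and Gtsf1 at -1.59 and then at -1.40, -1.31 and -1.03. Mael was at 0.74 and then at 0.92, 0.94 and 0.93, and Tdrd1 at 0.78 and then at 0.94, 0.88 and 0.40. All 5 kept their side of the median under each. Under TPM scaling this was close to set in advance, since a constant per library moves most genes and their median together. It leaves the change itself as it was, and Tdrkh was there at -0.40 (limma adjusted p 0.291).

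Transcript length moved with the fold changes across the table. Tested genes were put into 4 bins of 1579 to 1583 genes by length. The bin with the shortest transcripts (96 to 1339 nt) had a median log2 fold change of -0.58, and the bin with the longest (3662 nt and more) had 0.29. Gtsf1, at 819 nt, was in the shortest bin and Tdrd1, at 5187 nt, in the longest, each on the same side of 0 as its bin. Mael, at 1546 nt, was above 0 in a bin with a median of -0.18, and Tdrkh, at 2642 nt, was below 0 in a bin with 0.13, which Ddx4, at 3012 nt, shared. The part of length alone was not measured, since the correction fitted length and GC content together. That correction left Ddx4 (1.37) and Tdrkh (-0.87) near their values and brought Gtsf1 and Tdrd1 (0.47) closer to 0. Mael moved away from 0, from 0.66 to 1.00.

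**Figure D3:**
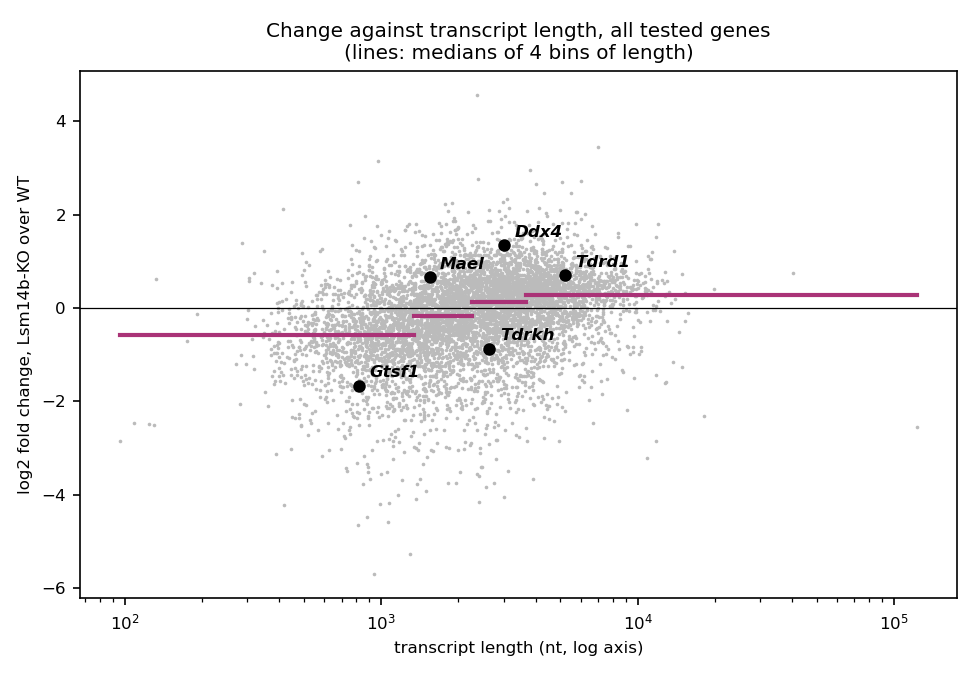
Log2 fold change (vertical axis, Lsm14b-KO over WT) against transcript length in nt (horizontal log axis) for the tested genes with a transcript (grey), the medians of the 4 length bins (lines, from -0.58 to 0.29) and the 5 tested members (black). Gtsf1 and Tdrd1 lie on the side of their bin's median, and Mael and Tdrkh on the other side of 0 from theirs.

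**Figure D4:**
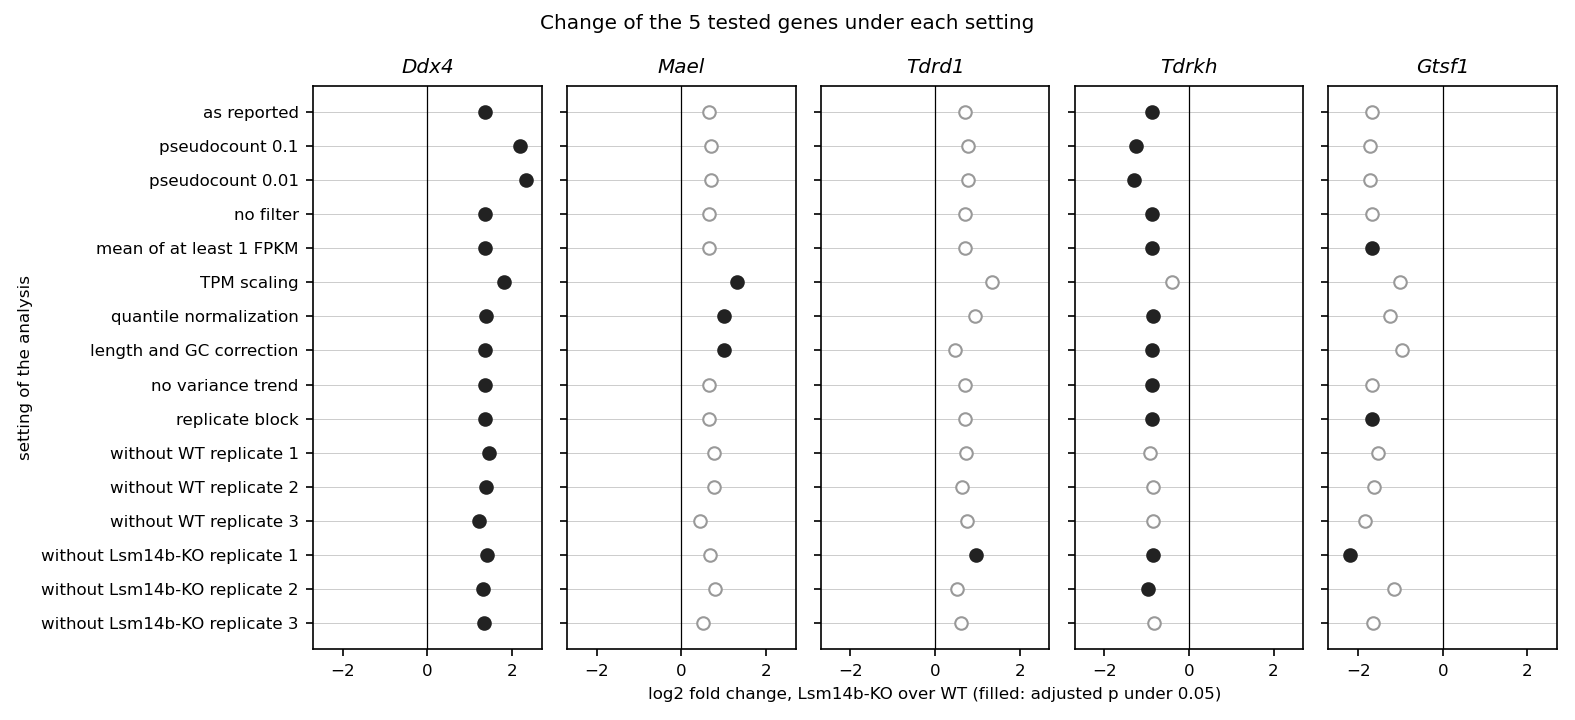
Log2 fold change (horizontal axes, Lsm14b-KO over WT) of the 5 tested members as reported and under the 15 alternative settings (rows), filled where the adjusted p in limma was under 0.05. Ddx4 is filled in every row, Tdrkh loses its call in 5 rows, and no gene crosses 0.

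A wider list of 38 genes was set beside the members. It held genes of the pathway and of germ granules, and also germ cell regulators of translation such as Dazl and Nanos2. Of the 38 genes, 35 were found by symbol, 5 of them at 0 in all libraries, and 19 were tested. With an adjusted p under 0.05, 1 rose (Tex15) and 2 fell (Dazl and Nanos2), while 16 did not pass, with log2 fold changes of -0.81 to 1.47. Of all tested genes 21.6% passed, so 3 of 19 is not above that share. The groups did not overlap in 9 of the 19 (6 higher and 3 lower), beside 45% of all tested genes. Of the lower genes, Mybl1 entered the test through WT replicate 2 alone (1.36 FPKM), with at most 0.67 FPKM in Lsm14b-KO libraries. Leaving out Lsm14b-KO replicate 1 let 9 of the 19 pass, beside 47% of all tested genes in that fit. For the 19 as a whole the median was 0.23 on the log2 scale.

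Tex15, whose protein acts with a nuclear PIWI protein in transposon methylation, was at 2.16, 1.95 and 1.47 FPKM in WT and at 4.69, 12.1 and 7.91 FPKM in Lsm14b-KO. Every Lsm14b-KO library exceeded every WT library, and the log2 fold change came to 1.62 (SE 0.32, limma adjusted p 0.0135). The call was lost without WT replicate 2 (1.64, adjusted p 0.0537), WT replicate 3 (1.51, adjusted p 0.0571) or Lsm14b-KO replicate 3 (1.60, adjusted p 0.0643 in limma). Over the 15 alternatives its adjusted p in limma was 0.000412 to 0.0643.

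Dazl, which encodes an RNA-binding translational regulator of germ cells and was the most abundant gene tested in the list, dropped from 135, 128 and 155 FPKM in WT to 34.4, 57.2 and 50.5 FPKM in Lsm14b-KO. The groups lay far apart (log2 fold change -1.56, SE 0.30, limma adjusted p 0.0131). Without WT replicate 1, 2 or 3 the adjusted p was 0.0653, 0.0621 and 0.0616, at log2 fold changes of -1.59, -1.62 and -1.48, and without Lsm14b-KO replicate 3 it was 0.0601 at -1.63 in limma. Under TPM scaling the change was -0.88 (adjusted p 0.125) and under quantile normalization -0.97 (adjusted p 0.0834), neither of which passed, and the lowest adjusted p over 15 alternatives was 0.00126 in limma.

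Nanos2, which encodes a translational repressor best known from male germ cells, was lower in every Lsm14b-KO library (1.13, 0.67 and 0.89 FPKM) than in any of WT (4.11, 3.96 and 3.13 FPKM). It fell by 1.32 on the log2(FPKM + 1) scale (SE 0.20, adjusted p 0.00524 in limma), and the call was kept in all 15 alternatives (adjusted p 0.00102 to 0.0373). Tdrd12, a Tudor domain helicase of piRNA biogenesis, had 24.6 ± 3.63 FPKM in WT and 32.4 ± 4.95 FPKM in Lsm14b-KO FGOs (SD, n = 3 each), and was the most abundant Tudor gene of both lists. Its log2 fold change was 0.39 (95% confidence interval -0.23 to 1.00, adjusted p 0.303 in limma). Asz1, which encodes a granule scaffold at mitochondria, averaged 19.9 ± 6.39 FPKM in WT and 14.4 ± 9.18 FPKM in Lsm14b-KO (SD, n = 3 each). Its log2 fold change of -0.56 (limma adjusted p 0.367) turned to 0.077 under TPM scaling, and to -1.01 (limma adjusted p 0.0300) when Lsm14b-KO replicate 1 was left out.

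Counts by role are too small to set against the 21.6% of all tested genes and are given as a description. None of the 6 tested Tudor domain genes of the wider list passed, and their log2 fold changes ran from -0.29 to 0.87. The 2 other PIWI genes were not tested: Piwil4 was listed at 0 in all libraries, and Piwil1 had 0.22 ± 0.05 FPKM in WT and 0.10 ± 0.07 FPKM in Lsm14b-KO FGOs (SD, n = 3 each). All 3 calls were among the 11 tested genes listed as helicases and other granule factors, where Tex15 had been put although its protein acts in nuclear silencing too. Of the 3 genes listed for arginine methylation only Clns1a was tested, and of the 4 listed for nuclear silencing only Dnmt3l, and neither of these passed.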

How the data were processed

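The RNA-Seq data comprised 3 WT and 3 Lsm14b-KO libraries of FGOs, grouped and numbered by the sample titles. Per the labels and methods, cDNA was made by Smart-seq2 and read as pairs of 150 bp. After trimming, the authors aligned reads to mm10 with TopHat2 (2.0.13) and derived FPKM with Cufflinks (2.2.1). The annotation was not given in the sources used here. The authors' own columns of log2 fold changes, p-values and q-values were not used. The deposited FPKM were transformed to log2(FPKM + 1) and those genes reaching 1 FPKM in any library were fitted with limma 3.58.1 in R 4.3.3 (eBayes with an intensity trend, genotype as the only term, two-sided, Benjamini-Hochberg over 6398 genes). A pseudocount shrinks changes of low genes.

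The members and gene lists were chosen with earlier results of these data known. All members were named, with the genes of the wider list that had an adjusted p under 0.05 and its 3 most abundant tested genes. Lengths, GC content and positions came from GENCODE vM21 (98.8% of tested genes matched by current or older symbol), and copies were searched with blastn 2.17.0. Read counts were not given. Relative depth was the commonest ratio between genes under 0.2 FPKM in both libraries, where values move in steps of a fixed number of fragments. Alternatives were other pseudocounts, filters and scalings, a length and GC correction by loess, no trend, a replicate block, and each library left out.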

Additional observations from a re-analysis of the deposited data

How the results depend on the processing

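Ddx4 and Lsm14b kept direction and call under all 15 alternatives, and none of the 5 tested members changed sign. The number of all genes past the threshold moved from 1383 to 720 when genes below 1 FPKM were also tested, and to between 321 and 2952 when a library was left out. The number of members past it, 2 as reported, ran from 1 to 4 with a library left out, and that of the wider list, 3 as reported, from 1 to 9. For the tested members the median log2 fold change, 0.66, became 1.32 under TPM scaling, 0.95 under quantile normalization and 0.47 under the length and GC correction, and 0.45 to 0.72 with a library left out. Ddx4 entered through its Lsm14b-KO values. With the filter taken off the median over all 10 members was 0.081, beside 0.019 for all genes. The pseudocount draws both towards 0 through low genes. Mael passed at 1.32, 1.00 and 1.00 under those 3 settings. Tdrkh did not pass under TPM scaling (-0.40) and ran from -0.96 to -0.82 with a library left out. Tdrd1 then ran from 0.53 to 0.98 and Gtsf1 from -2.20 to -1.14. Gtsf1 also passed when a mean of at least 1 FPKM was asked for (-1.66, adjusted p 0.0499 in limma). Asz1 changed sign under TPM scaling, to 0.077. The cause of these moves was not tested, other than that fewer libraries were fitted or other genes tested.

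The replicate numbers were not taken to pair the libraries: deviations of same-numbered libraries correlated at 0.19, -0.13 and 0.02, and WT replicates 2 and 3 correlated best with Lsm14b-KO replicates 1 and 2. With the replicate number as a block, 1244 genes, 3 members and 4 genes of the wider list passed, and Gtsf1 passed at -1.66 (adjusted p 0.0412 in limma). Depth limits Piwil2, Mov10l1, Pld6, Tdrd7 and Tdrd9, of which Pld6 had 1 value above 0 and the others 7 to 40 steps each over all 6 libraries.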
